A study of Mus musculus with 21 samples.

Results

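Foxp3, the transcription factor that defines regulatory T cells, was followed across splenic CD8+ T cells and tumors together with Ikzf2, Il2ra, Tnfrsf4, Tnfrsf18, Itgae and Cd4, genes that are commonly read beside it in those cells. The 7 genes were taken by their symbol from the 3 deposited expression tables, which list 16835 genes between them. All 7 were listed in every table and passed the filter on low counts in each. Foxp3 had been picked for its level in the CD8+ T cell table, where Cd4 was close to absent, so the set was selected on that measured level and the levels below carry no test.

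Mice were fed a control chow diet or a methionine-restricted (MR) diet. CD8+ T cells, the cytotoxic class of T cells, were isolated fresh from the spleens of both diet groups (3 libraries each). The tumors were of a colon carcinoma line of the mouse, MC38 (4 libraries for each diet), and of a mouse melanoma line, BPD6 (4 libraries from control and 3 from MR mice), whose columns are headed GEMM6, so that the name of the table alone ties them to BPD6. All groups differ within a material by diet alone as far as the labels go, and the strain, age and sex of the mice, the length of the diet, any pooling of animals and the purity of the CD8+ cells are not stated in those labels. In these bulk libraries, fewer cells of a type and less RNA per cell cannot be told apart.

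Regulatory T cells restrain other T cells, and most of them are CD4+ cells whose identity depends on Foxp3, while a small class of Foxp3-expressing CD8+ cells is also known. They carry CD25, the high-affinity chain of the interleukin-2 receptor encoded by Il2ra, and the costimulatory receptors OX40 (Tnfrsf4) and GITR (Tnfrsf18). These surface genes are not unique to them: activated T cells carry CD25, OX40 and GITR, and CD103 (Itgae) marks many CD8+ T cells that lodge in epithelia.

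Totals per library, in estimated read counts, ran from 15733774 to 19562590 in CD8+ T cells, from 16275832 to 24129562 in MC38 and from 18346438 to 20835926 in BPD6. The labelled cell types were checked against their markers. In the splenic cells Cd8a, a coreceptor chain that defines this class, lay between 1189 and 1619 CPM (reads of a gene relative to the TMM-scaled total of its library), and Cd4 between 1.74 and 4.58 CPM. The labels call the tumor samples tumor cells, but Cd3e, a chain of the T cell receptor complex, was detected in all 15 of them at 0.107 to 7.06 CPM, and 10 macrophage markers summed to 557 to 2059 CPM. Of 7 epithelial markers, 7 were listed for MC38 and 6 for BPD6. On control chow they summed to 2.42 to 17.1 CPM in MC38 and 26.0 to 139 CPM in BPD6, so the melanoma model was above the carcinoma. Under MR the sums were 2.65 to 76.2 and 45.1 to 148 CPM, which overlap. Of 7 melanocyte markers, Mitf, Pmel and Sox10 were listed for BPD6, summing to 16.7 to 28.6 CPM, and Mlana, Tyr, Tyrp1 and Dct were not listed. MC38 had the same 3 listed, summing to 7.20 to 39.5 CPM, and the same 4 missing. On control chow the sums were 16.7 to 27.6 CPM in BPD6 and 7.73 to 11.8 CPM in MC38, without overlap. Under MR they were 24.6 to 28.6 and 7.20 to 39.5 CPM, so these markers set the 2 models apart on control chow only.

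The value read as Foxp3 has a second gene beneath its last exon. In GENCODE M21 (GRCm38), the transcript named in the CD8 and MC38 tables, NM_054039, runs from 7579669 to 7595234 on the plus strand of chromosome X and has 13 exons and 3763 bases. Its last exon holds 2335 of these bases. Ccdc22, which encodes a subunit of a complex that returns membrane proteins from endosomes to the cell surface, is transcribed from the opposite strand between 7593809 and 7605517, and its 3' end lies within that exon. The pair share 590 exon bases, which are 15.7% of the Foxp3 transcript and 25.1% of the Ccdc22 transcript, and the overlap touches 4 of 17 Ccdc22 exons. For the transcript that the BPD6 table names, NM_001199347 (7579676 to 7595245, 14 exons), the share of Foxp3 is 15.4%. The sources used here do not say that strand was kept, so reads from these shared bases cannot be assigned to one gene or the other. The share of bases does not bound this uncertainty, because the levels of the pair differ. In MC38 controls, for example, Ccdc22 averaged 36.0 CPM and Foxp3 12.9 CPM. How much of the Foxp3 value comes from Ccdc22 reads was not tested.

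**Figure D1:**
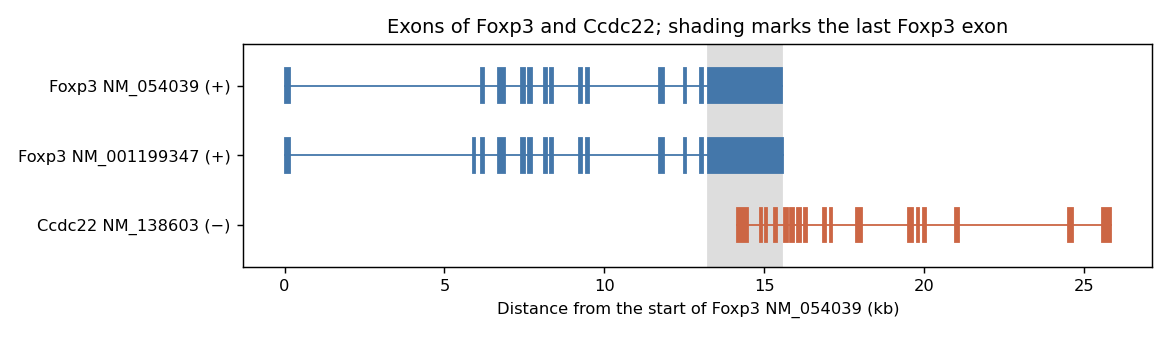
Exons of both Foxp3 transcripts and of Ccdc22, drawn by distance from the start of Foxp3 NM_054039 in kilobases; boxes are exons, lines are introns, and plus and minus give the strand. The shaded last Foxp3 exon, 2335 bases long, reaches over the last 4 of 17 Ccdc22 exons, with 590 exon bases in common.

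Flicr, a long noncoding RNA of the same strand, begins upstream of Foxp3 and shares 178 exon bases with NM_054039, but its own level was low, at 0.0817 to 2.08 CPM. Ppp1r3f, which encodes a subunit that directs a phosphatase to glycogen, overlaps the span of Foxp3 with 0 shared exon bases. Among the other 6 genes, Itgae contains Haspin, a histone kinase gene of the opposite strand, with 0 exon bases shared with the CD8 table's Itgae transcript. The genes that overlap Ikzf2, Il2ra and Tnfrsf18 in the annotation are listed in 0 of the 3 tables. The same holds for Gm36995, a processed transcript of the opposite strand that overlaps the Foxp3 gene by 21602 bases. Its exons were not compared with those of Foxp3.

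The tables name Foxp3 transcripts with different starts, so stretches at the Foxp3 starts are shown as RefSeq gives them (GRCm38.p6, plus strand, 250 bases each). The first stretch, chrX:7579426-7579675, ends at the base before the start of NM_001199347. NM_054039 starts at 7579669, so the last 7 bases of that stretch are its first transcribed bases. The second, chrX:7580233-7580482, precedes a further RefSeq start at 7580483 that is the start of neither transcript in the tables. Capitals mark TATAAA (the core of a TATA box), GGAAA (the core to which NFAT and related factors bind) and GTAAACA (a forkhead factor motif), each searched on both strands.
Foxp3 upstream stretch 1: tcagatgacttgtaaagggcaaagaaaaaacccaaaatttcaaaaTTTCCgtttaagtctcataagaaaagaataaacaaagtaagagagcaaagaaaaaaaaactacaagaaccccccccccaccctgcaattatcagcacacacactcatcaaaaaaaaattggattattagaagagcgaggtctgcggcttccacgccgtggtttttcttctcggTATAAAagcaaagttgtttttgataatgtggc
Foxp3 upstream stretch 2: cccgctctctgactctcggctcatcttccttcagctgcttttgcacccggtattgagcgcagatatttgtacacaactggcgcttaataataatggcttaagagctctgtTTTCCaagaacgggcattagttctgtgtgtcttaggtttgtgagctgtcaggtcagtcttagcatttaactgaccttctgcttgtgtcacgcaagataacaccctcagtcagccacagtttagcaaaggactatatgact
The first stretch holds 1 TATAAA and 1 GGAAA, the latter read on the opposite strand as TTTCC, and the second holds 0 TATAAA and 1 GGAAA. The motif GTAAACA was found in neither, which says nothing of other forms of forkhead site or of bases beyond these windows. Of 32851 mouse promoter windows from RefSeq, 12.4% hold TATAAA, 55.6% hold GGAAA and 3.17% hold GTAAACA, so the matches are common ones and describe the letters alone.

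Foxp3 was highest in splenic CD8+ T cells. Its values were 101, 102 and 125 CPM in the control libraries and 48.5, 92.7 and 63.8 CPM in the MR libraries, in replicate order. Every control library was above every MR library, and MR replicate 2 came closest to the controls. In MC38 tumors Foxp3 was 11.4, 15.2, 12.6 and 12.4 CPM under control diet and 25.2, 16.7, 17.4 and 13.7 CPM under MR. MR replicate 1 was the highest of these 8, and the groups overlapped because MR replicate 4 was below control replicate 2. In BPD6 tumors the values were 15.6, 11.6, 9.78 and 7.997 CPM in control and 10.7, 10.6 and 9.68 CPM in MR libraries, where MR lay inside the control range. All 6 CD8+ T cell libraries were above all 15 tumor libraries, and among the tumor groups neighbours in the order of means overlapped.

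Ikzf2 encodes Helios, an Ikaros-family factor found in most thymus-derived regulatory T cells. It did not share the drop from spleen to tumor. Its values were 10.7, 11.8 and 11.96 CPM in control and 8.08, 6.85 and 9.43 CPM in MR CD8+ T cells, and here too the groups did not overlap. MC38 gave 12.1, 12.1, 13.1 and 10.8 CPM on control chow and 10.2, 9.19, 10.1 and 12.6 CPM under MR. BPD6 gave 9.44, 11.4, 12.9 and 11.2 CPM on control chow and 10.4, 10.2 and 10.2 CPM under MR. The order of its 6 group means ran from 12.03 ± 0.940 CPM in MC38 controls to 8.12 ± 1.29 CPM in CD8 MR cells, and only that last group stood apart from its neighbour.

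The 3 receptor genes divided by material. Il2ra was low in CD8+ T cells, at 4.32, 3.58 and 1.88 CPM in control and 2.43, 2.02 and 3.36 CPM in MR libraries. Its group means were higher in MC38 tumors, where the libraries held 7.05, 5.31, 3.58 and 7.02 CPM in control and 3.81, 5.56, 7.12 and 11.5 CPM in MR, with MR replicate 4 the highest of all libraries and with ranges that overlap those of the CD8+ T cells. In BPD6 tumors it stayed between 0.393 and 2.35 CPM. Unlike Foxp3, Il2ra was not highest in the CD8+ T cells, and its neighbouring groups in the order of means overlapped throughout.

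Tnfrsf4 and Tnfrsf18 lie next to each other on chromosome 4, at 156013843 to 156016612 and 156026164 to 156028895, and both were far higher in CD8+ T cells than in tumors. Tnfrsf4 was 27.97, 27.3 and 24.99 CPM in control and 19.3, 25.8 and 27.03 CPM in MR CD8+ T cells, and between 0.344 and 4.38 CPM in tumors. Tnfrsf18 was 56.7, 45.8 and 51.5 CPM in control and 58.7, 58.6 and 52.9 CPM in MR CD8+ T cells, and between 0.320 and 6.62 CPM in tumors. For both genes the diet groups overlapped in the CD8+ T cells, where MR replicate 1 was the lowest library for Tnfrsf4 and the highest for Tnfrsf18. In MC38 the MR values of Tnfrsf18 were 3.34, 6.62, 6.02 and 6.52 CPM against 4.22, 2.76, 3.02 and 5.11 CPM in controls, with MR replicate 1 inside the control range and the other 3 above it. Tnfrsf4 there was 1.28, 1.22, 0.692 and 2.81 CPM on control chow and 1.29, 1.961, 4.38 and 2.70 CPM under MR, in overlapping groups.

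Itgae encodes the integrin chain CD103, which pairs with the beta 7 chain and binds E-cadherin. It was 21.2, 32.7 and 27.8 CPM in control and 33.7, 28.8 and 30.99 CPM in MR CD8+ T cells, with control replicate 2 inside the MR range. MC38 gave 1.07, 1.22, 1.26 and 1.52 CPM on control chow and 1.14, 2.21, 2.30 and 1.76 CPM under MR, and those groups overlapped as well. Over all tumors it was between 0.0542 and 2.30 CPM, the lowest of these being BPD6 control replicate 1 with a count of 1.

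Cd4, the coreceptor of helper and most regulatory T cells, was 4.58, 1.74 and 2.69 CPM in control and 2.71, 4.37 and 1.80 CPM in MR CD8+ T cells. The ranges of the diet groups nearly coincide. In MC38 it was 0.855, 1.54, 0.880 and 4.05 CPM on control chow and 1.48, 2.94, 10.6 and 1.999 CPM under MR, with MR replicate 3 far above the rest. In BPD6 it was 0.651, 1.504, 1.69 and 1.49 CPM on control chow and 1.94, 1.48 and 0.295 CPM under MR, where the groups overlapped. Zbtb7b, the factor that directs thymocytes to the CD4 lineage, was 5.77 to 14.6 CPM in the CD8+ T cells and 66.7 to 132 CPM in the tumors.

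**Figure D2:**
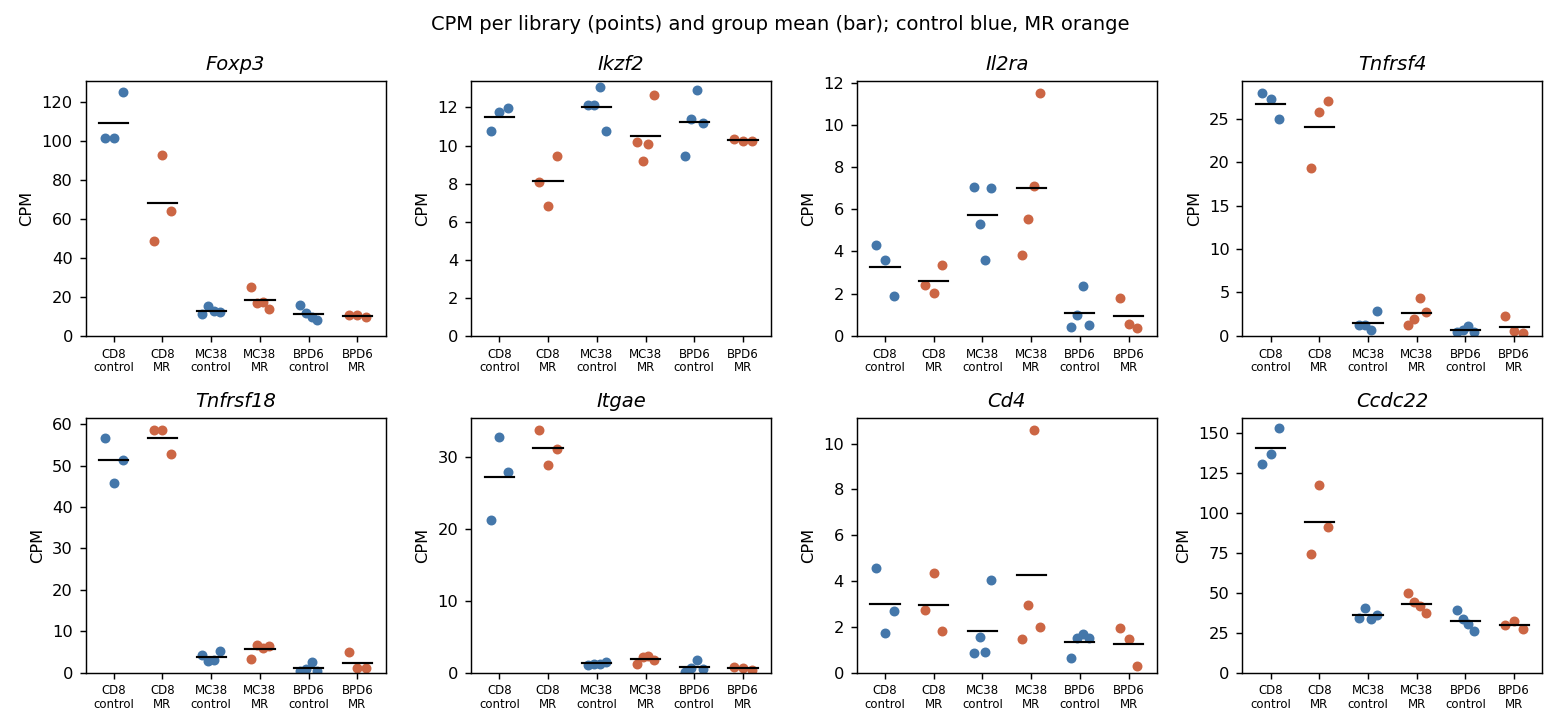
CPM of the 7 genes and of Ccdc22 in each library (points) with the group mean (bar), control in blue and MR in orange, on axes that start at 0. Foxp3 in CD8+ T cells is 109 CPM on average in control and 68.3 CPM in MR libraries, and Ccdc22 is also lower under MR there, at 140.1 against 94.3 CPM.

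Levels of different genes were set side by side only per kilobase of transcript. In control CD8+ T cells Foxp3 was 29.04 ± 3.58 CPM per kilobase, between Cd3e at 92.6 ± 27.6 and Cd4 at 0.965 ± 0.465 (SD, n = 3). Tnfrsf18 at 43.2 ± 4.56 and Tnfrsf4 at 25.96 ± 1.51 CPM per kilobase were of the same order as Foxp3. In tumors the order of Foxp3 and Cd3e turned round. Foxp3 was 3.43 ± 0.434 CPM per kilobase and Cd3e 1.08 ± 0.456 in MC38 controls (SD, n = 4), and Foxp3 was 2.94 ± 0.851 and Cd3e 0.693 ± 0.483 in BPD6 controls (SD, n = 4). In these tumors Foxp3, which marks a minority of T cells, was thus listed above Cd3e, which T cells carry in general. Ccdc22 was 15.3 ± 1.37 CPM per kilobase in MC38 controls and 13.7 ± 2.32 in BPD6 controls. The part of T cells, of other cells or of Ccdc22 reads in this order was not tested.

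In splenic CD8+ T cells, Foxp3 and Ikzf2 had lower values under MR, while the receptors, Itgae and Cd4 had differences of small size and mixed sign. Foxp3 averaged 109 ± 13.5 CPM on control chow against 68.3 ± 22.5 CPM under MR (SD, n = 3 each), a log2 difference of -0.68 ± 0.20 (SE) with an edgeR adjusted p of 0.0998, which missed the threshold of 0.05. DESeq2 on the same counts gave an adjusted p of 0.0388, and the authors' deposited table gives 0.0381. Over the alternatives tried, the adjusted p ran from 0.0151 without MR replicate 2 to 0.440 without MR replicate 1. Ikzf2 differed by -0.50 ± 0.24 (edgeR adjusted p = 0.299). Il2ra, Tnfrsf4 and Cd4 had log2 differences of -0.33 ± 0.44, -0.15 ± 0.18 and -0.02 ± 0.47. Among the 7 genes, Tnfrsf18 and Itgae had the only positive ones, at 0.14 ± 0.15 and 0.20 ± 0.18.

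By edgeR, 0 of the 7 genes passed in CD8+ T cells, 1 (Foxp3) had an unadjusted p under 0.05, DESeq2 called 1 (Foxp3) and limma-voom 0. Of all 12348 genes tested, 1.41% passed the edgeR test, 17.3% had an unadjusted p under 0.05, DESeq2 called 4.8% and limma-voom 1.09%. MR was below control without overlap for 2 of the 7 genes, Foxp3 and Ikzf2, and for 10.9% of all genes. The median log2 difference was -0.15 over the 7 genes and 0.01 over all genes. The gene beneath the last Foxp3 exon gave nearly the same result: Ccdc22 was 131, 137 and 153 CPM in control and 74.3, 117 and 91.2 CPM in MR libraries. The groups of Ccdc22 did not overlap, and they differed by -0.57 ± 0.17 on the log2 scale (edgeR adjusted p = 0.102, DESeq2 adjusted p = 0.0396, range over the alternatives 0.0289 to 0.450).

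Markers of other immune cells also differed in part in the splenic cells. Their counts stand beside those of all 12348 genes, of which 1.41% passed the edgeR test and 17.3% had an edgeR unadjusted p under 0.05. DESeq2 called 4.8% of all genes and limma-voom 1.09%. Of 8 natural killer cell markers, 8 had lower MR values and 5 had an edgeR unadjusted p under 0.05. The test was passed by 1, Klre1, at -1.44 ± 0.30 (edgeR adjusted p = 0.0294), while DESeq2 called 1 (Klre1) and limma-voom 1. The summed list was 293 to 542 CPM in control and 189 to 348 CPM in MR libraries. Of 10 B cell markers, 9 had lower MR values, 0 passed the edgeR test, DESeq2 or limma-voom and 6 had an edgeR unadjusted p under 0.05, and their sum was 60.9 to 314 and 76.1 to 122 CPM. Of 10 macrophage and monocyte markers, 5 had lower MR values and Lyz2 passed, at -1.30 ± 0.30 (edgeR adjusted p = 0.0456). It was the only one with an edgeR unadjusted p under 0.05, and DESeq2 called 1 (Lyz2) and limma-voom 0. The sums of this list were 238 to 423 and 191 to 379 CPM. Of 8 dendritic cell markers, 6 had lower MR values (median -0.61), 0 passed the edgeR test, DESeq2 or limma-voom and 3 had an edgeR unadjusted p under 0.05. Their sums were 225 to 258 and 211 to 273 CPM. Of 11 T cell markers, 6 had higher and 5 had lower MR values (median 0.007). By edgeR 0 of the 11 passed and 2 had an unadjusted p under 0.05, while DESeq2 called 1 (Cd247) and limma-voom 0. The T cell markers summed to 6679.7 to 6901 CPM in control and 5506 to 6368 CPM in MR libraries. The part of such cells in the Foxp3 difference was not tested.

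In MC38 tumors 6 of the 7 genes had higher mean values under MR, Ikzf2 being the exception. Foxp3 averaged 12.9 ± 1.63 CPM on control chow against 18.2 ± 4.92 CPM under MR (SD, n = 4 each), a log2 difference of 0.50 ± 0.19 (edgeR adjusted p = 0.309), and without MR replicate 1 it was 0.30. The largest difference was that of Cd4, 1.21 ± 0.72 (edgeR adjusted p = 0.450), which was 0.23 without MR replicate 3. Tnfrsf4, Tnfrsf18 and Itgae had log2 differences of 0.77 ± 0.49, 0.57 ± 0.30 and 0.55 ± 0.30, each from overlapping groups. Il2ra and Ikzf2 had 0.28 ± 0.35 and -0.19 ± 0.15.

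By edgeR 0 of the 7 genes passed in MC38, and 1 (Foxp3) had an unadjusted p under 0.05, as did 14.1% of 14034 genes, while DESeq2 and limma-voom called 0 of the 7. The edgeR test and limma-voom called 0% of all genes there, and DESeq2 called 2.82%. No member was free of overlap, against 4.05% of all genes higher and 4.72% lower without overlap. The median log2 difference was 0.55 over the 7 genes and 0.02 over all genes. T cell genes in general pointed the same way, with 10 of 11 T cell markers higher and a median of 1.18, but 0 passed by edgeR, 4 had an unadjusted p under 0.05, DESeq2 called 1 (Cd3d) and limma-voom 0. Their sum was 59.97 to 89.8 CPM on control chow and 44.4 to 134 CPM under MR. Markers of other cells were also mostly higher: 10 of 10 macrophage (median 0.84), 9 of 10 dendritic (0.54), 6 of 8 natural killer (0.27) and 5 of 5 epithelial markers (2.26). For B cells it was 3 of 5 (1.09) and for melanocytes 0 of 2 (-0.09). By edgeR 0 of these passed and, in this order, 6, 1, 1, 0, 2 and 0 had an unadjusted p under 0.05. DESeq2 called 3 macrophage markers (C1qa, Fcgr3 and Lyz2) and 1 natural killer marker (Tyrobp), and limma-voom 0. Ccdc22 was 34.2, 40.6, 33.4 and 35.7 CPM on control chow and 49.5, 43.99, 41.6 and 37.3 CPM under MR, a log2 difference of 0.26 ± 0.11 (edgeR adjusted p = 0.347). The part of T cell numbers, of other cells or of Ccdc22 reads in the members' values was not tested.

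In BPD6 tumors no member showed a difference beyond the spread of the libraries. Foxp3 averaged 11.3 ± 3.26 CPM on control chow (SD, n = 4) against 10.3 ± 0.549 CPM under MR (SD, n = 3), a log2 difference of -0.13 ± 0.23. Tnfrsf18 had the largest difference, 1.21 ± 0.81, from values of 0.488, 0.830, 2.51 and 0.320 CPM on control chow and 5.0, 1.16 and 1.08 CPM under MR, and it rests on the first MR library, without which it was 0.12. That same library was also the highest of the 3 MR libraries for Il2ra, Tnfrsf4, Itgae, Cd4 and Cd3e. Ikzf2, Il2ra, Itgae and Cd4 had log2 differences of -0.13 ± 0.14, -0.22 ± 0.74, -0.32 ± 0.86 and -0.11 ± 0.60, and Tnfrsf4 had 0.71 ± 0.68. By edgeR 0 of the 7 passed and 0 had an unadjusted p under 0.05, all 7 had an adjusted p of 0.9997, and DESeq2 and limma-voom called 0 of the 7, where edgeR called 0% of 13978 genes and 1.85% had an unadjusted p under 0.05. The groups overlapped for all 7, as compared with 1.9% of all genes lower and 1.5% higher without overlap.

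Whether the diet difference itself differed between the tumor models was tested with a model-by-diet interaction term in edgeR over 14257 genes, of which it called 0%. The BPD6 minus MC38 contrast of the log2 differences was -0.63 ± 0.31 for Foxp3 (SE, edgeR adjusted p = 0.849), and for Ccdc22 it was -0.37 ± 0.19 (edgeR adjusted p = 0.849). For Foxp3 it joins NM_054039 in MC38 with NM_001199347 in BPD6. A fit limited to genes with the same transcript in both models therefore left Foxp3 out. Cd4 and Itgae had -1.33 ± 1.05 and -0.87 ± 0.91, and the other 4 genes lay between -0.52 and 0.63. The Cd4 contrast was -0.31 without MC38 MR replicate 3 and -2.03 without MC38 control replicate 4. With 0 of the 7 genes past the test, a difference between the models was not detectable at this number of libraries.

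**Figure D3:**
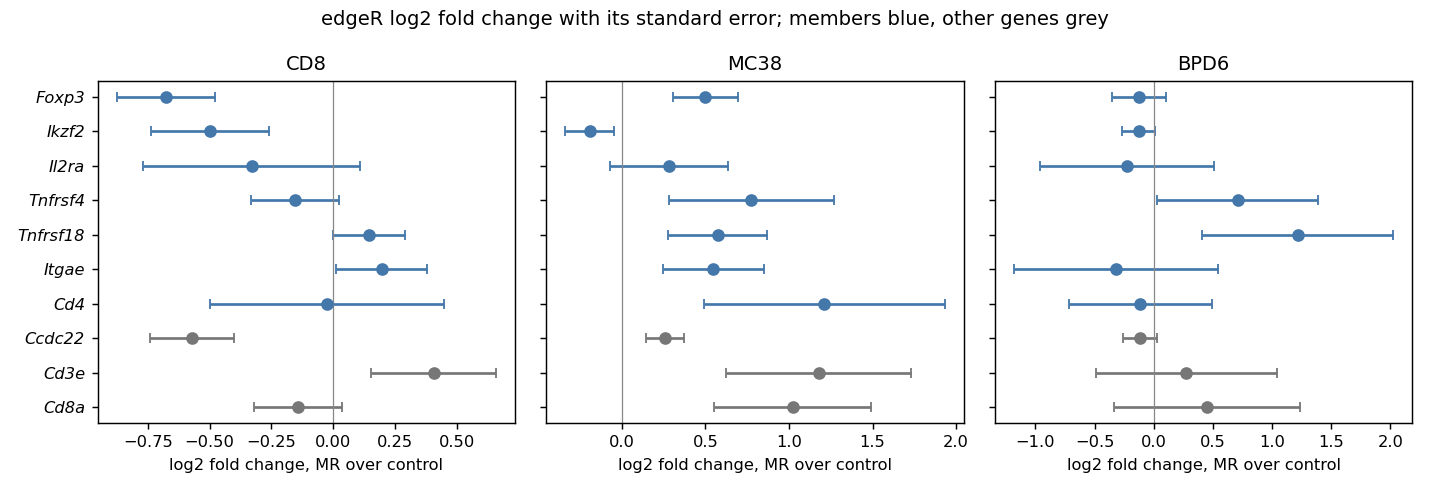
Log2 difference of MR over control from edgeR (point) with its standard error (bar) for the 7 genes in blue and for Ccdc22, Cd3e and Cd8a in grey; the scales of the 3 panels differ. In CD8+ T cells Foxp3 (-0.68) and Ccdc22 (-0.57) lie farthest to the left, and in MC38 most genes lie to the right of 0 with wide bars for Cd4.

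Foxp3 was next set against genes that stand for the T cells in a sample, as the ratio of counts with 0.5 added to each. Per Cd3e, the median ratio in CD8+ T cells was 0.650 in control and 0.446 in MR libraries, with ranges of 0.631 to 1.40 and 0.184 to 0.704 that overlap. In MC38 the ratio was 7.43 in control and 4.80 in MR tumors, so that Foxp3 per Cd3e had a lower median under MR while Foxp3 itself had a higher mean. In BPD6 it was 12.7 and 11.2. Per Cd4, the medians were 45.9 and 21.1 in CD8+ T cells, 11.2 and 6.25 in MC38, and 6.65 and 7.07 in BPD6.

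Across these ratios and those per Cd8a, 9 exact two-sided permutation tests gave p-values from 0.2 to 0.686, all with an adjusted p of 0.675 or 0.686. The smallest p that the designs allow is 0.1 in CD8+ T cells, 0.0286 in MC38 and 0.0571 in BPD6. The ratio of Foxp3 to Ccdc22, chosen after their values had been seen, was far steadier. It was 0.743 to 0.817 in control and 0.653 to 0.790 in MR CD8+ T cells (exact permutation p = 0.3). It was 0.335 to 0.376 in control and 0.368 to 0.510 in MR MC38 tumors (exact permutation p = 0.114, adjusted p = 0.343 over 3 tests), and 0.308 to 0.401 and 0.330 to 0.362 in BPD6 (exact permutation p = 0.857). Within a tumor model the lowest and the highest Foxp3 per Cd3e ratio were several times apart. Small Cd3e counts widen that ratio: BPD6 control replicate 4 had a Cd3e count of 2 and a Ccdc22 count of 489. Ccdc22 also shares exon bases with Foxp3. The part of either in the steadier ratio to Ccdc22 was not tested.

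**Figure D4:**
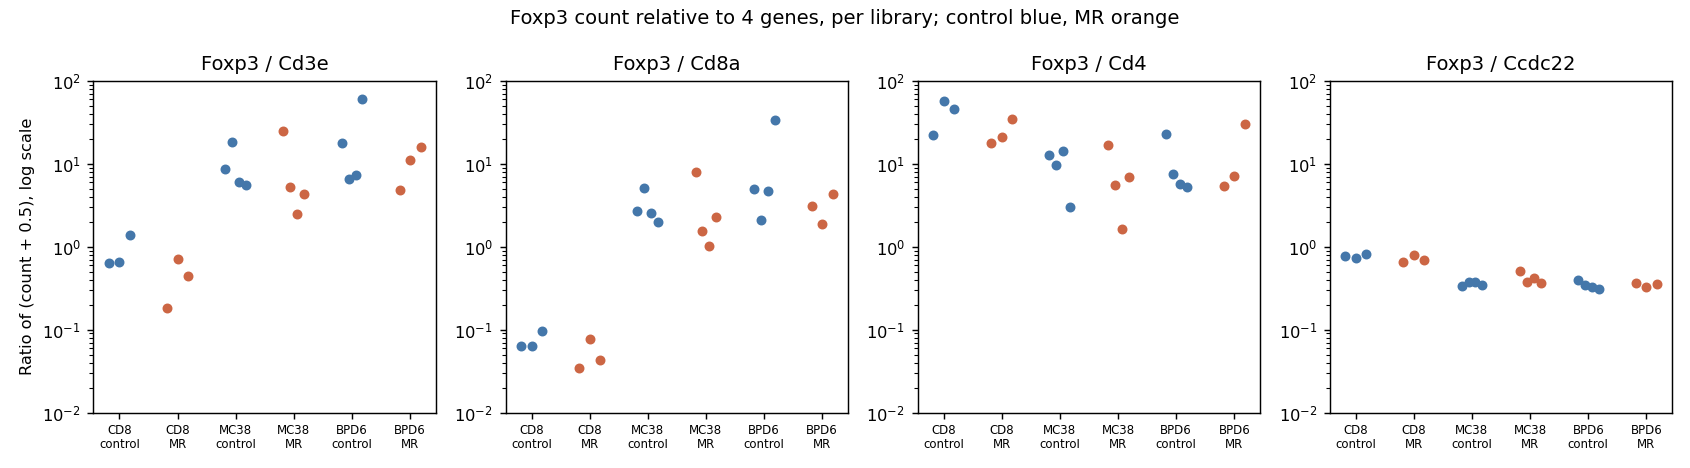
Ratio of Foxp3 counts to Cd3e, Cd8a, Cd4 and Ccdc22 counts (0.5 added to each) in every library on a log axis, control in blue and MR in orange. The ratio to Ccdc22 stays between 0.308 and 0.817 over all 21 libraries, whereas the ratio to Cd3e runs from 0.184 to 60.4. The value of 60.4 is that of BPD6 control replicate 4 and rests on a Cd3e count of 2.

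The genes most like Foxp3 were ranked by the Pearson correlation of log2(CPM + 1) after each group's mean was taken off, over all 21 libraries and 10555 genes including Foxp3. Only genes with a mean of at least 1 CPM in each material were ranked. These correlations are a description: all points of a gene pair come from the same libraries and share their depth and scaling, and Foxp3 and Ccdc22 also share exon bases. Ccdc22 ranked first, with r = 0.96 and rho = 0.88, and r = 0.95 without the 2 libraries farthest from the median. It was followed by Lsm3, an RNA-binding factor of messenger RNA decay and splicing (r = 0.92), Pomp, a chaperone of proteasome assembly (r = 0.92), Cntd1, a cyclin-domain gene of meiosis (r = 0.91), and Tceal9 (r = 0.91). Within the 6 CD8+ T cell libraries Foxp3 and Ccdc22 had r = 0.99, and within the 15 tumor libraries r = 0.94, where Ccdc22 ranked 6. The 5 highest genes over tumor libraries alone were Lockd, Creld2, Rbm17, Nasp and Cdca5, with r from 0.94 to 0.95, and 0 of them were among the 5 over all libraries.

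Of the other 6 genes, Tnfrsf4 and Itgae were too low in mean CPM to be ranked. Ikzf2, Il2ra, Tnfrsf18 and Cd4 were ranked and were not near the top, with Cd4 the nearest at 5731 and Ikzf2 the farthest at 8945. Over all 21 libraries the r of these 6 genes with Foxp3 ran from -0.48 for Ikzf2 to -0.05 for Cd4, and Cd3e had -0.34. Cd3e was at -0.08 without the 2 libraries farthest from the median of Foxp3, and within the 6 CD8+ T cell libraries its r with Foxp3 was -0.84 (rho = -0.94, and r = -0.88 without the 2 farthest). In the 15 tumor libraries the receptors, Itgae and Cd4 instead went with each other and with Cd3e. By r the highest pair was Il2ra with Tnfrsf18 (r = 0.86, rho = 0.83), then Tnfrsf4 with Cd4 (r = 0.81, rho = 0.69) and Tnfrsf4 with Tnfrsf18 (r = 0.80, rho = 0.81). By rho it was Il2ra with Tnfrsf4 (rho = 0.86, r = 0.77). The lowest pairs among them were Il2ra with Cd4 (r = 0.39, rho = 0.475) and Tnfrsf18 with Cd4 (r = 0.45, rho = 0.53). With Cd3e the r of the receptors, Itgae and Cd4 lay between 0.52 for Il2ra and 0.72 for Tnfrsf4, against -0.15 for Foxp3 and 0.04 for Ikzf2. The value for Foxp3 rests on few libraries, since it was 0.30 without the 2 farthest from the median of Foxp3.

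**Figure D5:**
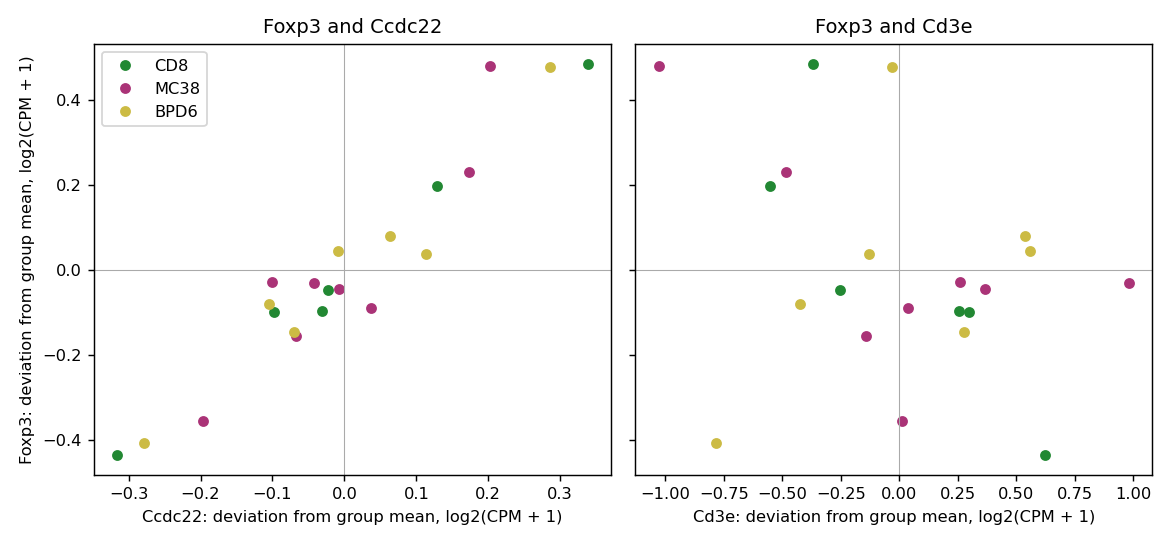
Deviation of Foxp3 from its group mean, in log2(CPM + 1), against that of Ccdc22 (left) and of Cd3e (right) in each of 21 libraries, coloured by material. The points rise along a line with Ccdc22 (r = 0.96) in all 3 materials. With Cd3e (r = -0.34) the tumor points scatter, while the 6 CD8 points fall as Cd3e rises (r = -0.84).

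Of the wider regulatory T cell program, 0 genes passed the edgeR test in any material, whether surface and secreted genes, transcription factors, the IL-2 receptor pathway, costimulation of the TNF receptor family, the CD103 and TGF-beta pathway or the CD4 lineage. Of 63, 65 and 60 genes of these 6 lists tested in CD8, MC38 and BPD6, 12, 8 and 2 had an edgeR unadjusted p under 0.05, beside 17.3%, 14.1% and 1.85% of all genes tested. DESeq2 called 4 of them in CD8+ T cells (Bcl6, Gata3, Il2rb and Klrg1), 1 in MC38 (Foxo3) and 0 in BPD6, beside 4.8%, 2.82% and 0.00715% of all genes, and limma-voom called 0 in each, beside 1.09%, 0% and 0% of all genes. With 63, 65 and 60 genes, these shares lie near those of all genes. List medians of the log2 difference are to be read beside those over all genes, which were 0.01 in CD8+ T cells, 0.02 in MC38 and -0.01 in BPD6. Surface and secreted genes had lower MR values for 12 of 14 tested members in CD8+ T cells (median -0.40), with 2 at an unadjusted p under 0.05. These were Klrg1, an inhibitory receptor of late effector and some regulatory T cells, at -1.56 ± 0.46 (edgeR adjusted p = 0.10), and Gpr83, a G protein-coupled receptor found on regulatory T cells, at 0.72 ± 0.24 (edgeR adjusted p = 0.135). The same list had 8 of 14 members higher in MC38 (median 0.14) and 11 of 13 higher in BPD6 (median 0.17). Among 14 transcription factors, 9 had lower MR values in CD8+ T cells (median -0.17), with Gata3, which upholds Foxp3 expression and drives type 2 helper cells, at -0.65 ± 0.19 (edgeR adjusted p = 0.0911) and no overlap. In MC38, 8 of 13 were higher (median 0.23), and Foxo3, a forkhead factor that shares control of Foxp3 with Foxo1, had -0.56 ± 0.15 (edgeR adjusted p = 0.255). In BPD6, 9 of 12 were higher (median 0.10).

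The other chains of the IL-2 receptor and its signalling genes differed in sign among themselves. In CD8+ T cells Il2rb, the signalling chain that joins CD25, was 294 ± 42.1 and 204 ± 7.004 CPM in control and MR libraries, a log2 difference of -0.53 ± 0.15 without overlap (edgeR adjusted p = 0.0981). Jak3, the kinase on the common gamma chain, had -0.64 ± 0.21, and Stat5b, which carries the signal to the nucleus, had 0.35 ± 0.14. The 12 tested genes of this pathway split evenly, 6 higher and 6 lower (median 0.02), while 9 of 12 were higher in MC38 (median 0.04) and 11 of 12 in BPD6 (median 0.26). In MC38, Il2rg, the common gamma chain, had 0.44 ± 0.15 (edgeR adjusted p = 0.292), and in BPD6, Socs3, an inhibitor of cytokine signalling, had 0.36 ± 0.14 (edgeR adjusted p = 0.9997). Il2, the ligand, was not listed in any of the 3 tables.

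For OX40 and GITR, the ligand genes Tnfsf4 and Tnfsf18 were not listed in CD8+ T cells. Of 7 tested genes of TNF receptor costimulation there, 6 had lower MR values (median -0.29), led by Traf1, an adaptor of these receptors, which was 479.7 ± 20.8 and 314 ± 125 CPM in control and MR libraries and had -0.61 ± 0.22 (edgeR adjusted p = 0.164). In MC38, 7 of 8 were higher (median 0.18), with Tnfsf9, the ligand of 4-1BB, at 0.42 ± 0.13 (edgeR adjusted p = 0.269), and in BPD6, 3 of 6 were higher (median -0.03). For CD103, 9 of 11 tested genes of its pathway had lower MR values in CD8+ T cells (median -0.11), with Smad3, which carries TGF-beta signals that induce Itgae and Foxp3, at -0.44 ± 0.15 (edgeR adjusted p = 0.144), and Itgb7, the partner chain of CD103, at -0.20 ± 0.18 (edgeR adjusted p = 0.610). In MC38, 8 of 13 were higher (median 0.05), and in BPD6, 9 of 13 (median 0.02). Cdh1, which encodes the CD103 ligand E-cadherin, had overlapping groups in every material and was 0.541 to 18.2 CPM in tumors.

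The CD4 lineage list had 5 tested genes in CD8+ T cells, of which 4 had lower MR values (median -0.13). Bcl6, a repressor that directs follicular helper T cells, was 23.8 ± 4.08 and 14.4 ± 1.78 CPM in control and MR libraries and had -0.73 ± 0.20 without overlap (edgeR adjusted p = 0.0775). In MC38, 4 of 5 were higher (median 0.33), with Cxcr5, the chemokine receptor of follicular T and B cells, at 2.57 ± 1.12 (edgeR adjusted p = 0.347), and 1 MR library held 9.69 CPM of it. In BPD6, 2 of 4 were higher (median -0.04). Cd8b1 and Runx3, which mark the CD8 lineage, had 0.42 ± 0.18 and -0.30 ± 0.15 in CD8+ T cells (edgeR adjusted p = 0.248 and 0.304). Of 6 CD8 lineage genes tested there, 4 had lower MR values (median -0.22). By edgeR 0 of the 6 passed and 3 had an unadjusted p under 0.05, beside 1.41% and 17.3% of all genes. DESeq2 called 1 (Eomes) and limma-voom 0, beside 4.8% and 1.09% of all genes.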

How the data were processed

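RNA from fresh cells was extracted with QIAzol, captured on poly-T beads and primed with random hexamers, per the labels' protocols. The authors deposited 1 table per material with estimated counts per gene and library that were not normalized, in steps of 0.5, here rounded to whole numbers. They also deposited log2 fold changes and p-values of their own comparison, per the file headers. Per the submitters' processing notes the genome build was GRCm38, also called mm10, and the aligner, counter, annotation and strand setting were not stated there. Another 21 per-library columns were not used.

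Counts were tested with edgeR 4.0.16 (quasi-likelihood, filterByExpr, TMM, Benjamini-Hochberg adjustment over 12348, 14034 and 13978 genes for CD8, MC38 and BPD6), and the script was tested on simulated data. DESeq2 1.42.0 and limma-voom (limma 3.58.1) were alternatives, with RLE scaling, no filter, each library left out and a replicate block. CPM uses TMM-scaled library sizes. The 7 genes and all gene lists were chosen with earlier results of these data known. Named are the 7 genes, genes past the test in each list or else the 3 of lowest p in lists close to regulatory T cells, 6 fixed lineage genes, the 5 genes most like Foxp3 and genes that overlap a member; of these the text gives those that bear on a member. Columns were assigned to samples by the diet and number in their names. The column names of the BPD6 table begin with GEMM6 and do not name BPD6, so that the model rests on the name of that table. Its MR columns carry the numbers 1, 2 and 4, which the labels do not, and were matched by diet only. Replicate libraries all differed by more than sampling noise (the lowest chi-square divided by its degrees of freedom was 12.8). Whether replicates are separate animals is not stated in the labels, and the p-values then reflect library-to-library spread that may be technical.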

Additional observations from a re-analysis of the deposited data

Results flagged for a closer look

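In 39 groups of 4 libraries, 4 had 1 library far from the other 3, and chance alone sets apart about 1 in 20 groups. Cd4 in MC38 tumors under MR was 10.6 CPM in replicate 3, against a median of 1.999 CPM in the other 3 libraries, and the same library had the highest Cd3e, Tnfrsf4 and Itgae of its group. Foxp3 per Cd3e in MC38 under MR was 24.6 in replicate 1, against a median of 4.36 in the others, where Cd3e was at its lowest of the group (1.001 CPM). Foxp3 per Cd8a in BPD6 controls was 33.6 in replicate 4, against a median of 4.72, and rests on a Cd8a count of 4. Foxp3 per Cd4 in BPD6 controls was 23.1 in replicate 1, against a median of 5.70, where Cd4 was lowest of the group (0.651 CPM). The cause of these values was not tested.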

How the results depend on the processing

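For the 7 genes and Ccdc22, 401 values kept direction and side of the threshold, 26 changed sign and 4 became calls. In CD8+ T cells DESeq2 called 1 of the 7 genes, and 593 genes in all against 174, while leaving out 1 library gave 0 to 1 of the 7 and 7 (without MR replicate 1) to 290 (without MR replicate 2) of all genes, with 36 without control replicate 1. The fit with a replicate block called 74 genes there and 0 in MC38, and it changed no call among the 7 genes. Same-numbered libraries did not pair (r from -0.26 to 0.09 in CD8 and from -0.31 to 0.41 in MC38), and 1 of 7 numbers correlated best with itself. In BPD6 the labels number the MR libraries otherwise than the columns; a replicate block by column number, added after seeing the data, called 0 genes there (797 at an unadjusted p under 0.05), with Il2ra at 0.28 and Itgae at 0.73 (both opposite in sign), and same-numbered columns had r from -0.10 to 0.063. DESeq2 called 396 genes in MC38 and 1 in BPD6, where edgeR called 0 of each. Over tumor libraries alone, 0 of the 5 genes most like Foxp3 were the same. The cause of these shifts was not tested.

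Left-out libraries turned the direction of the following values, none of them called. The log2 differences then ran from -0.41 to 0.42 for Cd4 in CD8, from -0.067 to 0.49 for Il2ra in MC38, and in BPD6 from -0.25 to 0.080 for Foxp3, -1.13 to 0.49 for Il2ra, -0.47 to 1.12 for Tnfrsf4, -0.70 to 0.64 for Itgae (0.28 by limma-voom) and -0.58 to 0.35 for Cd4. Between models (BPD6 minus MC38) they ran from -0.014 to 0.20 for Ikzf2, -1.40 to 0.19 for Il2ra, -1.23 to 0.33 for Tnfrsf4, -0.44 to 1.54 for Tnfrsf18 and -1.26 to 0.088 for Itgae. Log2 differences of Foxp3 ratios ran from -1.07 to 0.00033 per Cd3e in BPD6, -0.93 to 0.065 per Cd8a and -1.10 to 0.016 per Cd4 in MC38, and in BPD6 -0.47 to 0.78 per Cd4 and -0.035 to 0.092 per Ccdc22. Low counts limit the precision of Cd4, Cd3e, Cd8a, Itgae, Tnfrsf4 and Tnfrsf18 most in BPD6, where the lowest libraries hold 1 to 7 counts, against 11 counts or more in MC38.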

Other observations

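Ppp1r3f, the neighbour of Foxp3 on the other side from Ccdc22, went the opposite way in CD8+ T cells. It was 40.3 ± 9.38 CPM on control chow against 61.5 ± 7.23 CPM under MR (SD, n = 3 each). Every MR library was above every control, which also held for 11.5% of all 12348 genes tested in these cells. The log2 difference of Ppp1r3f was 0.61 ± 0.18 (SE, edgeR adjusted p = 0.0998), and it did not pass the test. In tumors Ppp1r3f was low and its groups overlapped. Flicr, which starts inside Ppp1r3f and ends inside Foxp3, was 1.08 ± 0.614 CPM on control chow against 1.74 ± 0.178 CPM under MR, with overlapping groups.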
